A study of Mus musculus with 6 samples.

Results

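The genes described here are 37 genes of cholesterol and fatty acid synthesis, measured among 19938 genes in mouse embryonic stem (ES) cells. They are 17 enzymes of sterol synthesis, a group of 6 made up of regulators and a sterol carrier, and 14 genes of fatty acid synthesis and processing. A gene was measured by the probe set that carried its symbol and no other, and where several did, by the one with the highest mean over all 6 arrays. All 37 were measured, and no filter on low values was applied. Vitamin C, as the phosphate ester L-ascorbic acid 2-phosphate at 200 μg/ml, was given for 72 hours to 3 cultures, and 3 untreated cultures received the same medium without it. All 6 were cultures of a single line, labelled Oct4-GiP, grown on gelatin in N2B27 medium with LIF (1000 U/ml), the MEK inhibitor PD0325901 (1 μM) and the GSK3β inhibitor CHIR99021 (3 μM), which together hold ES cells in the naive, undifferentiated state. The series' design text calls the 3 cultures of a group biological triplicates.

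Cholesterol is built from acetyl-CoA through mevalonate, isoprenoid diphosphates and squalene to lanosterol, which a chain of reductases, oxidases and isomerases turns into cholesterol. Fatty acids start from the same acetyl-CoA, which is carboxylated to malonyl-CoA, assembled into palmitate and then elongated and desaturated. The transcription factors SREBP-1 and SREBP-2 drive the genes of both paths. SCAP escorts them from the endoplasmic reticulum to the Golgi when sterols are scarce, and INSIG proteins hold them back when sterols are plentiful.

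RNA was measured on one-colour Affymetrix arrays, and a value is a log2 signal that can be compared between arrays for one probe set but not between probe sets. Array medians lay between 5.560 and 5.600 on the vitamin C arrays and between 5.523 and 5.548 on the untreated arrays. Lower quartiles were also higher with vitamin C (4.027 to 4.049 against 3.992 to 3.998). Upper quartiles were not, at 7.395 to 7.426 with vitamin C and 7.424 to 7.450 untreated. Arrays of one group correlated across genes at 0.995 to 0.996 and arrays of different groups at 0.989 to 0.990. Cell type markers were called by limma at an adjusted p under 0.05, where 5.75% of all genes rose and 7.40% fell. Of 12 ES cell markers 4 rose and none fell (summed linear signal 22662 to 23158 with vitamin C and 21815 to 22051 untreated). Fibroblast markers were measured for 20 genes, of which 9 rose and 1 fell. Their summed linear signal was 2491 to 2552 on the vitamin C arrays and 2079 to 2117 on the untreated arrays, and Postn was under the lower quartile on each of the 6 arrays. Of 15 primitive endoderm markers 4 rose, none fell and 11 did not pass (summed signal 2733 to 2837 with vitamin C and 2156 to 2237 untreated). That sum is weighted most by Sparc, the brightest of them (mean log2 signal 10.89 with vitamin C and 10.45 untreated). Of 10 trophectoderm markers 1 rose and 3 fell (939 to 983 with vitamin C and 1037 to 1087 untreated). None of 8 liver and fat cell markers passed, and Alb, Fabp4 and Adipoq were under the lower quartile on each of the 6 arrays (224 to 242 with vitamin C and 214 to 217 untreated). In these bulk samples a change in the share of a cell type and a change in RNA per cell cannot be told apart. These marker values moved with the groups beside every result below, and their part in the results was not tested.

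The median size of the log2 difference of the 37 genes was 0.172, against 0.126 over all genes tested. Only 1 gene, Tm7sf2, differed by more than 1.5-fold, where 3.19% of all genes did. By limma with Benjamini-Hochberg adjustment over all 19938 genes, 3 of the 37 rose, 6 fell and 28 did not pass. Over all genes, 5.75% rose and 7.40% fell, 13.2% in all. For all 28 genes that did not pass, the 95% confidence interval of the difference lay within 1.5-fold in either direction. The genes that passed, apart from Tm7sf2, also differed by less than 1.5-fold. That limit therefore does not show that the 28 were unchanged. The smallest difference of a called gene was that of Scd1 (-0.23, log2). Intervals of some of the 28 reached that size, such as that of Cyp51 (0.09 to 0.40). Others stayed short of it in both directions, such as those of Acly (-0.13 to 0.14) and Insig1 (-0.14 to 0.16). The intervals are not adjusted for the number of genes tested. The spread of the 37 genes within groups was small, with a median SD of 0.0598 against 0.106 over all genes. All 37 lay above the median signal of all genes (percentiles 56.6 to 99.2). Sizes and spreads were not compared with those of genes of like signal.

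**Figure D1:**
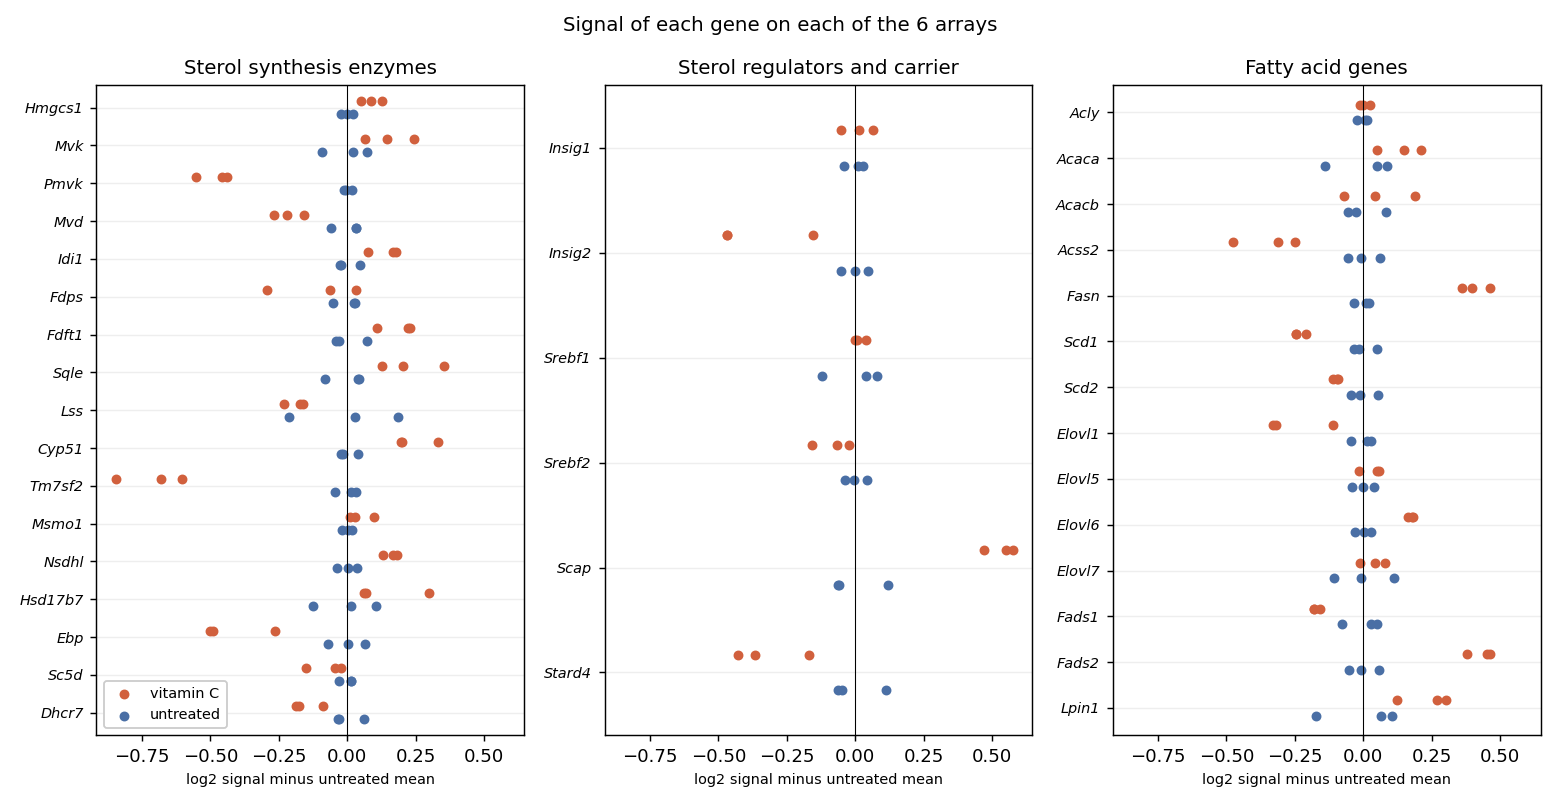
Log2 signal of the 37 genes on each array, minus the mean of the untreated arrays for that gene, with the 3 vitamin C arrays as the upper points and the 3 untreated arrays as the lower points of each row. Tm7sf2, Pmvk, Ebp, Scap, Fasn and Fads2 are the genes whose vitamin C points stand farthest from their untreated points, and Insig1, Srebf1 and Acly overlap.

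Among the 17 enzymes of sterol synthesis, 3 fell with vitamin C, none rose and 14 did not pass, beside shares of 7.40% lower and 5.75% higher over all genes. The 3 were Tm7sf2, Pmvk and Ebp, which act at separate points of the path. The median log2 difference of the 17 was 0.04, against 0.01 for all genes tested, with 9 positive and 8 negative differences. When genes under the median signal of all probe sets were left out, the median of the genes that remained was -0.02. Tm7sf2, a sterol reductase that acts after the lanosterol demethylase, had log2 signals of 7.43, 7.60 and 7.67 on the vitamin C arrays and 8.31, 8.23 and 8.29 on the untreated arrays. The highest vitamin C array lay well below the lowest untreated array. The log2 difference was -0.71 ± 0.08 (SE, n = 3 each), a 1.64-fold lower level (adjusted p = 0.00196). Lbr, the lamin B receptor, which carries out the same reduction, was looked up after this value was seen. It had 8.58, 8.77 and 8.74 with vitamin C and 9.00, 8.92 and 8.96 without. Its groups did not overlap, but the difference of -0.26 ± 0.07 (SE) did not pass (adjusted p = 0.0542).

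Pmvk, the phosphomevalonate kinase of the mevalonate path, had log2 signals of 7.85, 7.96 and 7.94 with vitamin C and 8.42, 8.39 and 8.39 without. The groups did not overlap, and the difference was -0.48 ± 0.06 (SE, n = 3 each), or 1.40-fold lower (adjusted p = 0.00359). Ebp, which moves a double bond within the sterol ring system, had 7.58, 7.82 and 7.59 with vitamin C and 8.02, 8.15 and 8.09 without. Replicate 2 was the highest of the vitamin C arrays and still lay below all untreated arrays. Its difference was -0.42 ± 0.08 (SE, n = 3 each, adjusted p = 0.0192). The call of Ebp did not hold without vitamin C replicate 1 (adjusted p = 0.0670) or 3 (0.0642) or without untreated replicate 2 (0.0637) or 3 (0.0591), while over the 15 other settings its adjusted p ran from 0.000952 to 0.0742. Tm7sf2 and Pmvk passed in all 15.

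Most enzymes that did not pass differed slightly, in both directions. Vitamin C arrays lay above all untreated arrays for 6 of the 17 enzymes and below them for 5, where 16.8% and 18.2% of all genes did so (35.0% in either direction). The 6 were Hmgcs1, which makes HMG-CoA (0.09), the isopentenyl diphosphate isomerase gene Idi1 (0.14), the squalene synthase gene Fdft1 (0.19), the squalene epoxidase gene Sqle (0.23), the lanosterol demethylase gene Cyp51 (0.24) and Nsdhl, a dehydrogenase that removes a carboxyl group from the sterol (0.16, all log2 differences). The 5 were Tm7sf2, Pmvk, Ebp, the mevalonate diphosphate decarboxylase gene Mvd (-0.22) and Dhcr7, a reductase of the last steps (-0.15). Cyp51 came closest to the threshold among the 14, with log2 signals of 8.71, 8.85 and 8.71 on the vitamin C arrays and 8.50, 8.55 and 8.49 on the untreated arrays. The lowest vitamin C array thus stood above the highest untreated one, and the difference was 0.24 ± 0.07 (SE, n = 3 each, adjusted p = 0.0516).

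Sqle, whose enzyme uses molecular oxygen to open the way to lanosterol, had 8.43, 8.51 and 8.66 with vitamin C and 8.22, 8.34 and 8.35 without. Its difference of 0.23 ± 0.08 (SE) did not pass (adjusted p = 0.106). Overlapping groups were measured for the mevalonate kinase gene Mvk (0.15), the farnesyl diphosphate synthase gene Fdps (-0.11), the lanosterol synthase gene Lss (-0.19), the methylsterol oxidase gene Msmo1 (0.04), the ketosterol reductase gene Hsd17b7 (0.14) and the sterol desaturase gene Sc5d (-0.07). Leaving out 1 array moved Lss to -0.30 (without untreated replicate 2) or -0.10 (without untreated replicate 3), and Hsd17b7 to 0.06 (without vitamin C replicate 2) or 0.08 (without untreated replicate 1). For Fdps, vitamin C replicate 1 (8.07) lay below the other 5 arrays (8.30 to 8.39). For Idi1 and Fdft1 a second probe set differed the same way (0.16 and 0.26).

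The number of sterol enzymes that passed depended on how the spread of each gene was modelled. With a spread that follows the signal level and is fitted robustly, 9 of the 17 passed, 4 higher and 5 lower, where 8.68% and 12.1% of all genes did (20.8% in all). Under it the 4 that rose were Fdft1, Sqle, Cyp51 and Nsdhl, with adjusted p-values from 0.00497 to 0.0266, and Mvd (adjusted p = 0.0262) and Dhcr7 (0.0396) joined the genes that fell. When genes under the median signal of all probe sets were left out before the fit, 8 of the 17 passed, 4 of them higher and 4 lower. Of the 11471 genes then tested 11.8% were higher and 19.4% lower (31.3% in all).

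**Figure D2:**
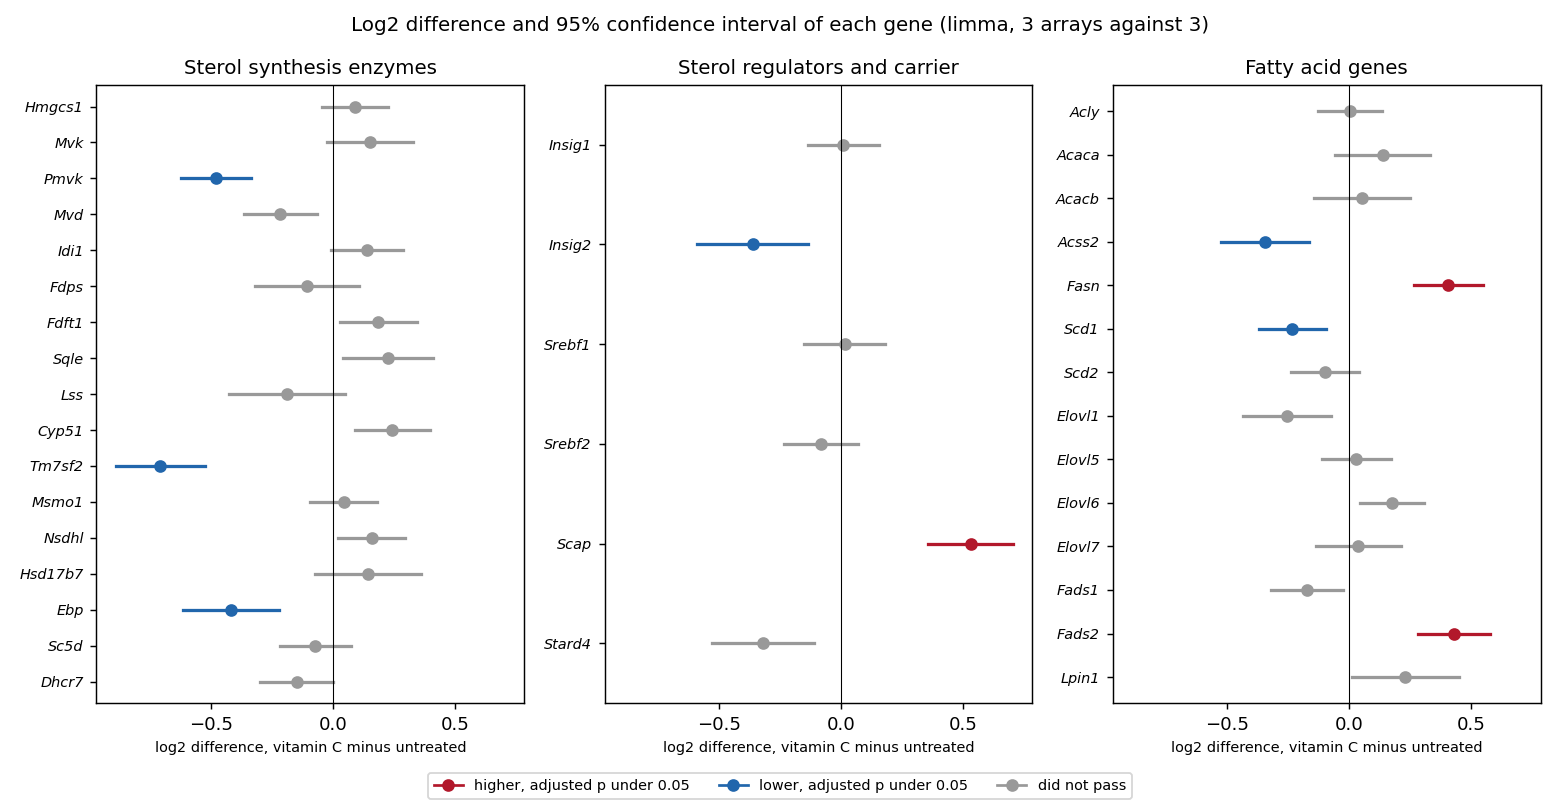
Log2 difference, vitamin C minus untreated, with its 95% confidence interval from limma, for the enzymes of sterol synthesis in the order of the path, the regulators and carrier, and the fatty acid genes (3 arrays against 3). Coloured genes passed at an adjusted p under 0.05: Tm7sf2, Pmvk, Ebp, Insig2, Acss2 and Scd1 lie below 0, and Scap, Fasn and Fads2 lie above it.

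The promoters of the sterol enzymes shared sequence features that the choice of genes did not use. The RefSeq promoter table (GRCm38.p6) held windows from 250 bases before to 50 after the start for 30 of the 37 genes, 14 of them sterol enzymes. All 14 held the motif CCAAT on one strand or the other, the box bound by NF-Y, a factor known to act together with SREBP. It was found for 4 of 5 regulators, 6 of 11 fatty acid genes (54.5%) and 41.7% of the 15614 genes tested that had a window. A form of the sterol response element, TCACNCCAC, was found in 1 of the 14 (Hmgcs1), for none of the other 16 genes with a window and in 1.40% of all genes. A shorter form, CACCCCAC, was found for 2 of the 30 genes, Hmgcs1 and the fatty acid gene Elovl7, and in 3.49% of all genes. GGGCGG, the Sp1 box, was found in 13 of the 14 against 52.9%, and CACGTG, an E-box, in 3 of the 14 against 9.50%. A gene with several listed starts counted once if any window held the motif, both strands were searched, and the motifs were not tested for function here.

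The 180 bases before the start are shown for 3 enzymes whose vitamin C arrays lay above the untreated ones (Hmgcs1, Cyp51 and Idi1) and for the 3 that fell (Pmvk, Tm7sf2 and Ebp), since both sets carry the box. Each is printed along the gene's own strand, and capitals mark CCAAT, which reads ATTGG where it lies on the other strand, and in Hmgcs1 also the sterol response element form.
Hmgcs1, chr13:119690171-119690350, plus strand: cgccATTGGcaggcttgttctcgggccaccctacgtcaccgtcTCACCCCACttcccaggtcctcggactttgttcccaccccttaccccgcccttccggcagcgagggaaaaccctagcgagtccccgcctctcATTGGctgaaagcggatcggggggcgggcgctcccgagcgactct
Cyp51, chr5:4104698-4104877, minus strand: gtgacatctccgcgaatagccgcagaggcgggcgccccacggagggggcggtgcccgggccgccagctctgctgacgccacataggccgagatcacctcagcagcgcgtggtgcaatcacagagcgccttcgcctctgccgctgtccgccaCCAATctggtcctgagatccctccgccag
Idi1, chr13:8885426-8885605, plus strand: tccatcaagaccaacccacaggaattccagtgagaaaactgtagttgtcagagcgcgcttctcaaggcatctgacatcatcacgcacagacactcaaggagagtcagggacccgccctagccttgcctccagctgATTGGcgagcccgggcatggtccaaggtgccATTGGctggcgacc
Pmvk, chr3:89454361-89454540, plus strand: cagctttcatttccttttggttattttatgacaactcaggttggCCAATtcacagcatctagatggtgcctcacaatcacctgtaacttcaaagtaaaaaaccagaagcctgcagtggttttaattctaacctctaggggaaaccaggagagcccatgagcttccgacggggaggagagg
Tm7sf2, chr19:6067851-6068030, minus strand: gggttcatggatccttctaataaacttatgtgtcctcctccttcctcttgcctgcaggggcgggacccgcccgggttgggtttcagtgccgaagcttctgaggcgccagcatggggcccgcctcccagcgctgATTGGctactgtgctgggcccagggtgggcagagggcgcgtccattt
Ebp, chrX:8193513-8193692, minus strand: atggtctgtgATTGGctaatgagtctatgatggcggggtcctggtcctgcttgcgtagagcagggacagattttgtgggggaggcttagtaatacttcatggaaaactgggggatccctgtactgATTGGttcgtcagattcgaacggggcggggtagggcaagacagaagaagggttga
CCAAT was present in all 6 stretches. Of the 6 genes the first 3 did not pass the test. The sterol response element form of Hmgcs1 lay at positions -137 to -129 from the start, between copies of the box.

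**Figure D3:**
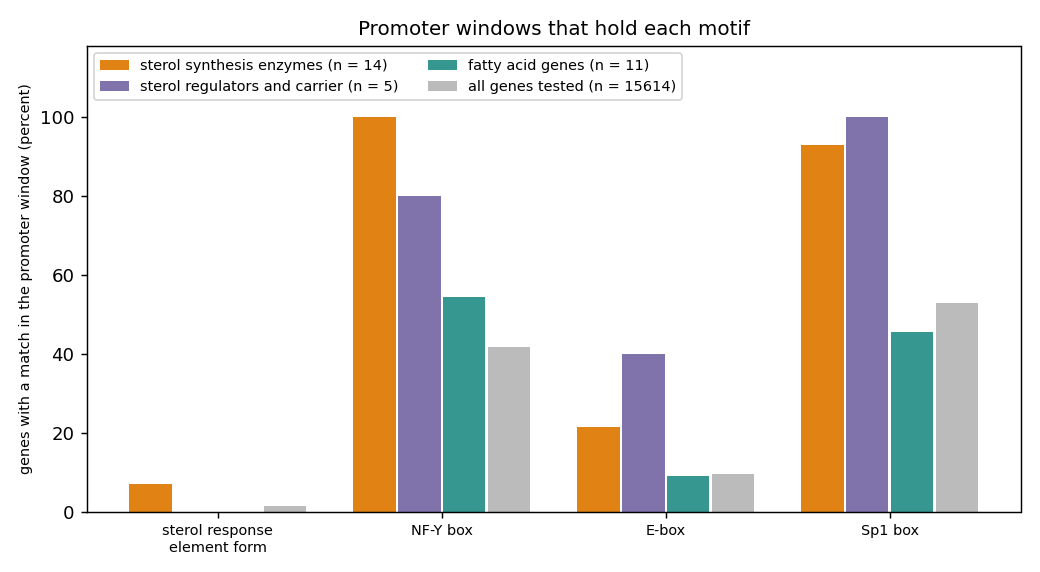
Percent of genes whose promoter window (250 bases before to 50 after a RefSeq start) holds each motif on either strand, for the 3 gene groups and for all genes tested that have a window. All 14 sterol enzyme genes with a window hold the NF-Y box in at least 1 window, against 41.7% of the 15614 genes tested. The sterol response element form TCACNCCAC is in 1 of the 14.

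Of the 6 genes of the regulators and the carrier, 1 rose, 1 fell and 4 did not pass, beside shares of 5.75% higher and 7.40% lower over all genes. Their median log2 difference was -0.04. Scap, the escort protein of SREBP, had log2 signals of 8.26, 8.36 and 8.34 on the vitamin C arrays and 7.72, 7.73 and 7.90 on the untreated arrays. All vitamin C arrays stood above all untreated arrays. The difference was 0.53 ± 0.07 (SE, n = 3 each), a 1.45-fold higher level (adjusted p = 0.00515), and it passed in all 15 other settings. The genes of the factors themselves overlapped between the groups. Srebf1 differed by 0.01 ± 0.07 (SE, adjusted p = 0.917, 95% interval -0.15 to 0.18) and Srebf2 by -0.08 ± 0.07 (SE, adjusted p = 0.450, 95% interval -0.24 to 0.07).

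The INSIG genes had unlike values. Insig2, the one whose transcript is less dependent on SREBP, had 6.57, 6.57 and 6.88 with vitamin C and 6.99, 7.08 and 7.04 without. Vitamin C replicate 3 stood closer to the untreated arrays than the other 2 did, and the difference of -0.36 ± 0.10 (SE) passed narrowly (adjusted p = 0.0495). That call was lost without vitamin C replicate 1 (adjusted p = 0.141) or 2 (0.128) and without untreated replicate 1 (0.0930), 2 (0.131) or 3 (0.117), and over the 15 other settings the adjusted p ran from 0.0126 to 0.141. Insig1, itself a target of SREBP, had 9.78, 9.84 and 9.72 with vitamin C and 9.73, 9.80 and 9.78 without, so the groups overlapped (0.01 ± 0.06 SE, adjusted p = 0.942, 95% interval -0.14 to 0.16). The difference between the 2 genes was not tested. Stard4, a carrier that moves cholesterol between membranes, had 7.64, 7.57 and 7.83 with vitamin C and 7.95, 8.11 and 7.94 without. Its groups did not overlap, but its difference of -0.32 ± 0.09 (SE) did not pass (adjusted p = 0.0585, and 0.0408 without vitamin C replicate 3, in a range of 0.00887 to 0.154 over the 15 settings).

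Among the 14 fatty acid genes, Fasn and Fads2 rose, Acss2 and Scd1 fell and 10 did not pass, beside shares of 5.75% higher and 7.40% lower over all genes. Their median log2 difference was 0.03. Vitamin C arrays lay above all untreated arrays for 4 of the 14 and below them for 5, against 16.8% and 18.2% of all genes. Fasn, the multifunctional synthase that assembles palmitate, had log2 signals of 9.05, 9.08 and 9.15 with vitamin C and 8.71, 8.70 and 8.65 without. The groups were well apart, with a difference of 0.41 ± 0.06 (SE, n = 3 each), or 1.33-fold (adjusted p = 0.00663). Its promoter also held the NF-Y box, 3 times within the 180 bases before the start, of which 2 copies on opposite strands overlap:
Fasn, chr11:120824548-120824727, minus strand: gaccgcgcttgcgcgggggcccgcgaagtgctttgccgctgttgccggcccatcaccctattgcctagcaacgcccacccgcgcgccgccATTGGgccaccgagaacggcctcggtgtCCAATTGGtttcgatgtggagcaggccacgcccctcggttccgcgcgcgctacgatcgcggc
Acly, Acaca and Acacb, whose enzymes supply its substrates, did not pass the test. Acly, which makes acetyl-CoA from citrate, had 9.29, 9.30 and 9.32 with vitamin C and 9.28, 9.31 and 9.32 without, a difference of 0.0045 ± 0.06 (SE, adjusted p = 0.969, 95% interval -0.13 to 0.14). The acetyl-CoA carboxylase genes Acaca (0.14, adjusted p = 0.324) and Acacb (0.05, adjusted p = 0.727) overlapped between the groups. Acaca differed by 0.07 without untreated replicate 1, and a second Acaca probe set differed by 0.19.

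Acss2, which makes acetyl-CoA from acetate, had 6.47, 6.63 and 6.69 on the vitamin C arrays and 7.00, 6.88 and 6.93 on the untreated arrays. Its groups did not overlap, and it differed by -0.35 ± 0.08 (SE, n = 3 each), or 1.27-fold lower (adjusted p = 0.0281). The call was lost without vitamin C replicate 1 (adjusted p = 0.0730) or 2 (0.0633) and without untreated replicate 1 (0.0857), 2 (0.0578) or 3 (0.0767), in a range of 0.00831 to 0.0857 over the 15 settings.

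The desaturase genes moved in both directions. Fads2, which starts the conversion of dietary polyunsaturated fatty acids, had log2 signals of 10.00, 9.91 and 9.99 with vitamin C and 9.53, 9.59 and 9.48 without. All vitamin C arrays stood above all untreated arrays, and the difference was 0.43 ± 0.06 (SE, n = 3 each), or 1.35-fold (adjusted p = 0.00617). Fads1, which lies on the same chromosome and acts later in that conversion, had 8.90, 8.92 and 8.90 with vitamin C and 9.11, 9.13 and 9.00 without. It was below the untreated arrays on every vitamin C array, yet its difference of -0.17 ± 0.06 (SE) did not pass (adjusted p = 0.118). The 95% interval of Fads2 (0.28 to 0.58) and that of Fads1 (-0.32 to -0.03) did not meet. These intervals are not adjusted for the number of genes tested, and the difference between Fads2 and Fads1 was not tested. Scd1, which places the double bond of oleate and palmitoleate, had 10.94, 10.97 and 10.93 with vitamin C and 11.16, 11.15 and 11.23 without. Its fall was small, -0.23 ± 0.06 (SE, n = 3 each, adjusted p = 0.0413), and whichever of the 6 arrays was dropped, the adjusted p exceeded the threshold (0.0834 to 0.123, and 9.34e-05 to 0.123 over the 15 settings). Its paralog Scd2 had 11.41, 11.40 and 11.39 with vitamin C and 11.55, 11.49 and 11.45 without, a difference of -0.10 ± 0.06 (SE, adjusted p = 0.322). Probes of such close paralogs can cross-hybridise, so the separate values of Scd1 and Scd2 are uncertain.

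None of the 4 elongase genes among the 37 passed. Elovl2, Elovl3 and Elovl4, which are outside the 37, did not pass either. Elovl4 came closest of these, with groups that did not overlap (0.39 ± 0.11 SE, adjusted p = 0.0536). Elovl6, which extends palmitate, lay above the untreated arrays on all vitamin C arrays (0.18 ± 0.06 SE, adjusted p = 0.0860). Elovl1, which makes very long saturated chains, lay below them (-0.25 ± 0.08 SE, adjusted p = 0.0746, and 0.0408 without vitamin C replicate 3, in a range of 0.00992 to 0.189 over the 15 settings). Elovl5 (0.03) and Elovl7 (0.04) overlapped between the groups. Lpin1, a phosphatidate phosphatase of glycerolipid synthesis, had 7.51, 7.33 and 7.48 with vitamin C and 7.03, 7.31 and 7.27 without. The groups nearly met but did not overlap, and the difference of 0.23 ± 0.09 (SE) did not pass (adjusted p = 0.153). With the trended and robustly fitted spread model, 8 of the 14 fatty acid genes passed, 3 higher and 5 lower, against 20.8% of all genes.

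Neighbouring parts of lipid metabolism were read from lists of genes outside the 37, beside 5.75% of all genes that rose and 7.40% that fell (13.2% in all, median log2 difference 0.01). Of 34 other genes of sterol handling 24 were measured, and the other 10 are not analysed here. Abca1, the exporter of cellular cholesterol, rose and none fell (4.17% passed). Abca1 had 7.02, 6.92 and 7.03 on the vitamin C arrays and 6.35, 6.39 and 6.44 on the untreated arrays, a difference of 0.59 (adjusted p = 0.00180). Of 38 measured genes of other fatty acid and glycerolipid steps 2 rose and 7 fell (23.7% passed). Slc25a1, which carries citrate out of mitochondria, fell by 0.47, Mcat of mitochondrial fatty acid synthesis by 0.52, Thrsp, a lipogenic protein, by 0.78, and Mlxipl, which encodes the carbohydrate-responsive factor ChREBP, by 0.45 (log2). Fatty acid binding protein genes differed in direction, with Fabp5 higher by 0.73 and Fabp3 lower by 0.45 on the log2 scale. Of 25 measured genes of fatty acid oxidation 6 fell and none rose (24.0% passed), with a median log2 difference of -0.12. They were Cpt1a, which controls entry of fatty acids into mitochondria (-0.38), Pdk4, an inhibitor of pyruvate dehydrogenase (-0.56), and the oxidation enzymes Echs1 (-0.38), Acaa2 (-0.31), Acadvl (-0.30) and Hadh (-0.26). Only 3 oxidation genes passed without vitamin C replicate 1 or 3 and without untreated replicate 1 or 3.

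**Figure D4:**
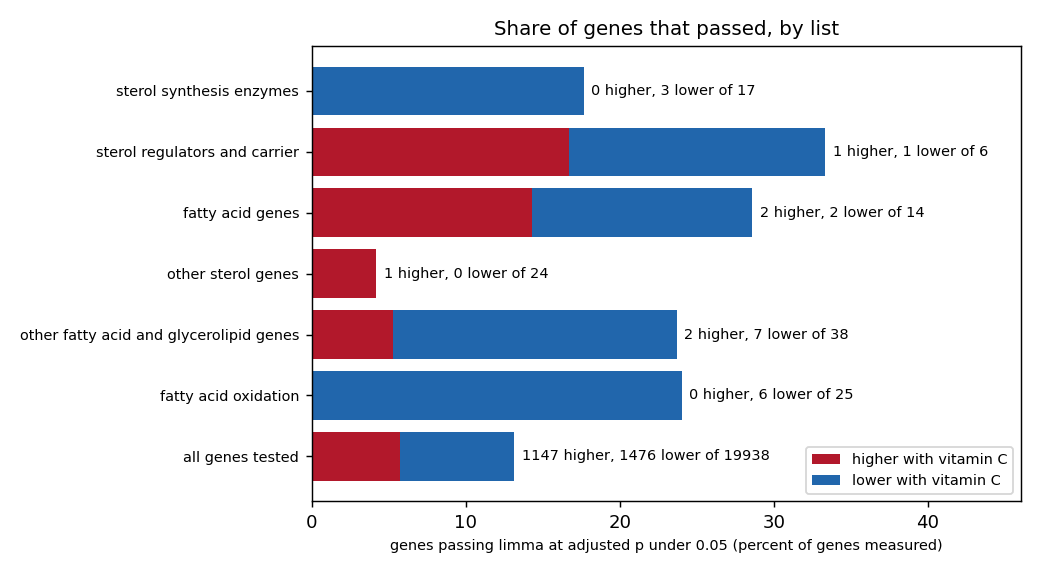
Percent of the measured genes of each list that passed limma at an adjusted p under 0.05, split into higher and lower with vitamin C, with the counts beside each bar. Sterol synthesis enzymes hold 0 higher and 3 lower of 17, fatty acid oxidation 0 higher and 6 lower of 25, and the fatty acid genes 2 of each. Over all genes 5.75% were higher and 7.40% lower. With the trended and robust spread model 4 sterol enzymes and 1 oxidation gene were higher, where 8.68% of all genes were.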

How the data were processed

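The deposited table holds log2 values for 35557 probe sets on 6 arrays. They were made with RMA, per the submitters' processing notes, which state no version. RMA usually includes quantile normalization, which removes any shift common to all genes, and a background correction that compresses differences of dim probe sets. The log2 scale was inferred from the range of the values. The number of arrays limits the precision.

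Groups came from the sample titles. The platform annotation gave 1 symbol for 21789 probe sets, several for 1621 and none here for 12147. Of the first, 21698 matched the RefSeq gene table by gene ID. Log2 differences, vitamin C minus untreated, were tested by linear models and moderated variances without covariates (R 4.3.3, limma 3.58.1), with Benjamini-Hochberg adjustment over 19938 genes and calls at an adjusted p under 0.05. Adjusted p-values come from that fit where no other is stated. The fit was tested on simulated data. All 37 genes are named, and of the other lists up to 6 called genes with the smallest p and the elongase genes. Lbr was added later. The genes and lists were chosen with earlier results of these data known. The other 15 settings changed the spread model, moderation, normalization, dim-gene filter, probe-set handling, array weights, pairing and arrays included, and an adjusted p under 0.01 was tried as well. Motifs were searched in RefSeq promoter windows of GRCm38.p6. Figures were drawn with matplotlib 3.10.9.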

Additional observations from a re-analysis of the deposited data

How the results depend on the processing

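Over the 15 other settings, Pmvk, Tm7sf2, Scap, Fasn and Fads2 were called in each, and also at an adjusted p under 0.01. Ebp, Insig2, Acss2 and Scd1 lost their calls in some but kept their direction, and 11 genes that did not pass did so in at least 1. The cause was not tested. The 2623 genes called over all genes became 4151 with the trended and robust spread model, 1545 without moderation, 1723 with the replicate number as a block, 901 at an adjusted p under 0.01 and 1483 to 1721 with 1 array left out. Sterol enzymes called (3) became 9 with the trended and robust model and 8 with dim genes left out. Regulators called (2) became 1 without moderation, with cyclic loess, with all probe sets tested, with the replicate block and at 0.01, and 1 to 3 with 1 array left out. Fatty acid genes called (4) became 8 with the trended and robust model, 7 with dim genes left out, 2 with all probe sets tested, with the replicate block and at 0.01, and 2 to 4 with 1 array left out, where fewer arrays enter the fit. Same-numbered arrays of the 2 groups deviated together at correlations of 0.052, 0.010 and -0.024, and not every array correlated best with its own number. Values this small show no strong shared deviation by number. They cannot show whether same-numbered cultures were handled together.

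Centring each array on its median shifted the median of all genes to -0.03 and turned the median of the fatty acid genes to -0.0055. It also turned Insig1 (-0.0302), Srebf1 (-0.0247), Acly (-0.0349), Elovl5 (-0.0095) and Elovl7 (-0.0015), none of them called. With 1 array left out, sign changes among genes that were not called were measured for Insig1 (range -0.0191 to 0.0401), Acly (-0.0066 to 0.0124), Acacb (-0.0140 to 0.1152), Elovl7 (-0.0145 to 0.0947) and Srebf1 (-0.0453 to 0.0547). Depth does not apply to arrays, and detection above background was not tested.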
